A study of Mus musculus with 12 samples.

Results

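Receptors for glutamate and GABA, with 7 proteins that work beside them at the postsynaptic membrane, were followed through the hippocampus of aged mice that carried the APPswe transgene. The genes were chosen by symbol: ionotropic and metabotropic glutamate receptor subunits, GABA-A and GABA-B receptor subunits, the CKAMP-type auxiliary proteins Shisa6, Shisa7 and Shisa9, both calcium/calmodulin kinase genes Camk2a and Camk2b, the scaffold gene Dlg4 and the neurogranin gene Nrgn. Of the 14881 genes counted, 46 met this rule: 4 AMPA, 6 NMDA, 5 kainate, 2 delta and 7 metabotropic glutamate receptor genes, 13 GABA-A and 2 GABA-B receptor genes, and 7 postsynaptic partners. The annotated genes Gabra6, Gabrr1, Gabrr3, Grin3b and Grm6 fit the rule too but were not among the 14881 genes, so they could not be analysed. All 46 genes passed the filter on low counts, which removed no gene.

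The study asked how a vector for the lymphatic growth factor VEGF-C and an antibody against amyloid beta, given alone or together, acted on the brain. The mice were male APPswe animals of 22 to 26 months, so no group lacked the transgene, and the promoter that drives it is not given in the sources used here. Each received 5 µL of an AAV1 vector into the cisterna magna, carrying either eGFP or mouse VEGF-C (mVEGF-C) under the CMV promoter, and weekly intraperitoneal injections at 40 mg/kg of either a murine control immunoglobulin (mIgG) or murine aducanumab (mAdu). There were 3 libraries in each of 4 groups: eGFP with mIgG (mice 1 to 3), eGFP with mAdu (mice 4 to 6), mVEGF-C with mIgG (mice 7 to 9) and mVEGF-C with mAdu (mice 10 to 12). Each library is called a mouse here. Whether every library came from a separate mouse could not be settled from the sources used here. The RNA was linearly amplified before sequencing.

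Glutamate is the main excitatory transmitter of the hippocampus. AMPA receptors carry most of the fast excitatory current, NMDA receptors let in calcium when the cell is also depolarised, and kainate and metabotropic receptors tune release and excitability. GABA-A receptors are chloride channels assembled mostly from alpha, beta and gamma or delta subunits, and GABA-B receptors are paired G-protein-coupled subunits. Calcium that enters through NMDA receptors binds calmodulin, which neurogranin holds in reserve at spines and which turns on the kinase built from the Camk2a and Camk2b products. The CKAMP proteins bind ionotropic receptors and change their gating or surface number, and the Shisa7 product has been described at both AMPA and GABA-A receptors.

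Depth was similar across the libraries, from 23213612 to 29295266 counted reads. The 46 genes together took 0.971% to 1.08% of a library's reads. Their median level was 81.9 CPM (counts scaled to a common library size), against 21.8 CPM over all genes. A total of 44 genes had at least 1000 reads summed over the 12 libraries, and the lowest was Gabrr2, with 9 to 23 reads in a library. One label names the brain meninges as the source while the design text names the hippocampus. Markers of CA1 pyramidal cells summed to 1341 to 1500 CPM over 7 genes and those of dentate granule cells to 660 to 795 CPM over 12 genes, while 10 meningeal fibroblast markers summed to 82.1 to 174 CPM. Bulk libraries cannot separate fewer cells of a type from less RNA per cell.

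Some libraries stood apart. The library of mouse 8 held the highest sums of neocortex markers (316 CPM, 8 genes, lowest library 221), thalamus markers (173 CPM, 7 genes, lowest 125) and oligodendrocyte markers (5758 CPM, 10 genes, lowest 3968). In every group the last-numbered library (mice 3, 6, 9 and 12) often lay between its group mates. It was the middle value of its group for 24, 29, 27 and 27 of the 46 genes, and for 48.8%, 45.0%, 49.8% and 45.6% of all genes. Such libraries narrow a group's spread, so results are also given without these 4 libraries. Mice 5 and 6 were also left out together in an alternative.

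Shisa7, Camk2b and Nrgn, the genes that were lower with the antibody, have an entry in the RefSeq promoter table (build GRCm38.p6). Stretches upstream of the RefSeq start that lie outside GENCODE exons are shown because these genes moved in the same direction. The Camk2b stretch lies inside the longer GENCODE span of that gene, whose outermost start is farther upstream. All are read on the minus strand, and capitals mark matches, on either strand, to the GC box GGGCGG, the cyclic AMP response half-site TGACG or the E-box CANNTG. Shisa7 covers chr7:4844867-4844946, Camk2b chr11:6065749-6065898 and Nrgn chr9:37552905-37552995.
Shisa7: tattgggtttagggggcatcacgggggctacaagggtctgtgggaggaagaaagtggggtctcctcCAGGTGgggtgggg
Camk2b: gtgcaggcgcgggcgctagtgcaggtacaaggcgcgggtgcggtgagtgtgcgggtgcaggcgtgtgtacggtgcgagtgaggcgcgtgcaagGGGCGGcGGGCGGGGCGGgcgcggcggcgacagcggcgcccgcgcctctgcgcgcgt
Nrgn: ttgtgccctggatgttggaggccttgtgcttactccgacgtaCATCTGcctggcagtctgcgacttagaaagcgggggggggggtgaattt

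The Shisa7 stretch had 61.2% G and C, against a median of 50% for the same window of all 27025 promoters, and held 1 E-box, which 30.1% of all promoters hold there. In Camk2b the value was 78.0% against 54.0%, with 3 GC boxes, a motif found in 29.0% of promoters in that window. The Nrgn stretch had 57.1% against 49.5% and 1 E-box, found in 33.5% of promoters. The half-site TGACG was in none of the 3 windows. A match describes letters and not a used site.

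Levels between genes were compared as CPM per kilobase of annotated exon, as the mean of 12 libraries with the lowest and highest. The length counts every annotated exon of a gene, used or not, so the orders between genes depend on it. Among AMPA receptor genes, Gria1 stood highest at 160 (143 to 183), followed by Gria2 at 84.1 (78.8 to 89.2), whose edited product keeps the channel closed to calcium. Gria3 at 19.5 (18.6 to 21) and Gria4 at 15.6 (13.7 to 17.0) were lower, and no 2 of the 4 ranges overlapped on this scale. Without division by length Gria2 stood above Gria1, at 1225 to 1386 CPM against 866 to 1104 CPM. Their exon lengths were 15.548 and 6.043 kilobases.

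The NMDA receptor genes were led by Grin2b at 24.8 CPM per kilobase (20.1 to 32.7) and by the obligatory subunit gene Grin1 at 21.8 (20.6 to 22.9), whose ranges overlapped. Grin2a was at 8.10 (6.70 to 8.79), Grin2c at 7.66 (7.03 to 8.53), Grin3a at 3.42 (3.21 to 3.80) and Grin2d at 0.470 (0.335 to 0.609). Ranges of Grin2a and Grin2c overlapped too. Grin2d shares 5607 bases with Kdelr1 on the opposite strand, and since the strand setting of the counting is not given in the sources used here, reads of such pairs cannot be told apart.

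Among kainate receptor genes, Grik5 stood at 12.3 CPM per kilobase (11.2 to 14.6), Grik4 at 7.70 (6.38 to 9.04), Grik3 at 6.14 (4.87 to 7.43), Grik2 at 5.27 (4.65 to 5.86) and Grik1 at 2.63 (2.34 to 2.91). Only the ranges of Grik4 with Grik3 and of Grik3 with Grik2 overlapped among these. The delta receptor gene Grid1 was at 14.1 (13.5 to 15.1).

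Metabotropic receptors were dominated by Grm5, a Gq-coupled postsynaptic receptor, at 55.5 CPM per kilobase (52.7 to 58.1). Grm3, found on astrocytes as well as neurons, followed at 30.1 (26.9 to 33.2). Grm7 was at 13.5 (12.7 to 15). Grm2 was at 6.71 (5.79 to 7.81), and the ranges of Grm4 at 2.09 (1.52 to 2.52) and Grm8 at 1.91 (1.65 to 2.32) overlapped.

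Among GABA-A receptor genes, Gabra5, the alpha subunit of extrasynaptic receptors on hippocampal pyramidal cells, was at 67.2 CPM per kilobase (61.0 to 72.7). Its annotated span overlaps other genes on the opposite strand, and how much of the shared stretch is exon was not examined. Gabrb2 was at 33.3 (30.7 to 37.0), then Gabra4 at 21.4 (19.5 to 23.1) and Gabra3 at 17.5 (15.6 to 20.9), which overlapped. Gabrd, the delta subunit of tonic receptors, was at 9.96 (9.32 to 10.6). Gabrg1 at 5.56 (4.44 to 6.24), Gabra2 at 5.31 (4.38 to 6.48) and Gabrb1 at 5.00 (4.65 to 5.30) overlapped one another. Gabrg3 at 2.46 (2.22 to 2.95) and the rho subunit gene Gabrr2 at 0.313 (0.173 to 0.440) were lowest. The spans of Gabra4 and Gabrb1 also share 196 bases on opposite strands.

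Both GABA-B genes were abundant, Gabbr1 at 107 CPM per kilobase (104 to 111) and Gabbr2 at 50.8 (47.4 to 54.4). Among the partners, Nrgn stood at 184 (167 to 203), above every receptor gene by its mean, though its range overlapped that of Gria1. Camk2b at 103 (95.4 to 113) and Camk2a at 102 (92.1 to 113) did not separate. Dlg4, which encodes the main postsynaptic density scaffold, was at 25.5 (23.7 to 27.4). The CKAMP genes were low, with Shisa9 at 5.28 (4.55 to 6.06), Shisa7 at 4.07 (3.38 to 4.72) and Shisa6 at 3.25 (2.39 to 3.78), each overlapping its neighbour.

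**Figure D1:**
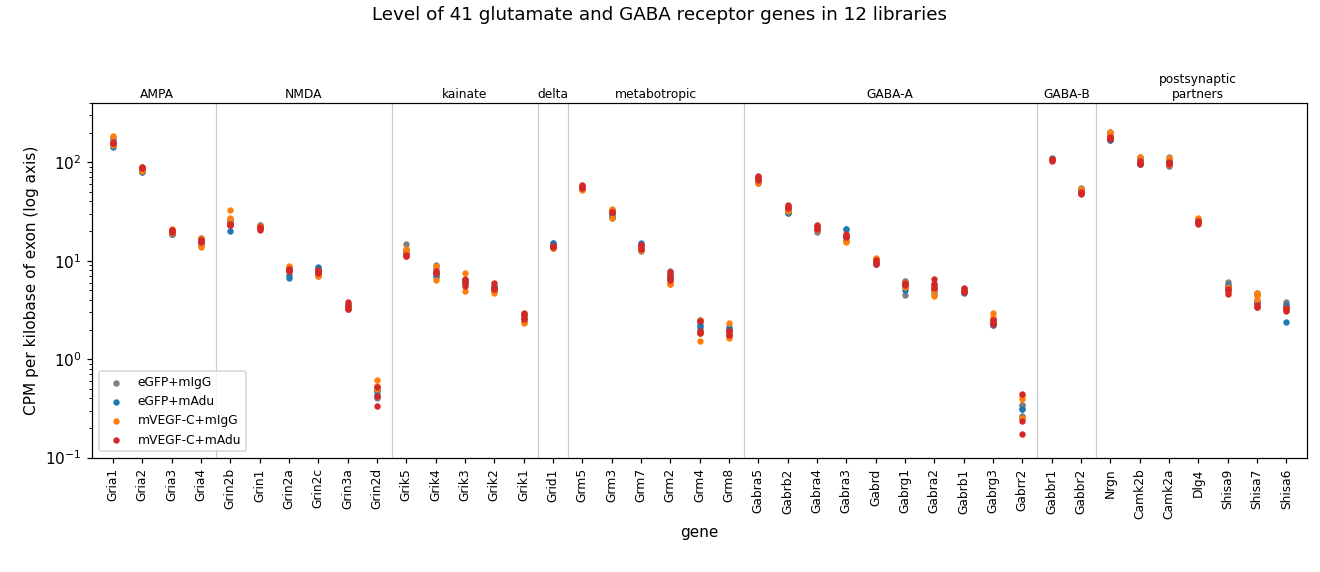
Level of 41 of the genes as CPM per kilobase of annotated exon on a log axis, grouped by receptor class, with 1 point per library. The points of most genes lie close together while genes span a wide range, from Gabrr2 at 0.313 to Nrgn at 184.

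Most of these genes varied little from mouse to mouse. Their median coefficient of variation over the 12 libraries was 6.69%, against 6.93% over all genes, and 36 of 46 were under 10%. Among the steadiest were Gabbr1 (1.73%), Grin1 (3.12%) and Grm5 (3.19%). At the other end were the sparsely counted Gabrr2 (26.0%), Grin2d (15.5%) and Grm4 (15.3%), then Grin2b (12.7%), Shisa7 (12.7%), Gabra2 (11.1%) and Gabra3 (10.8%). The highest library exceeded the lowest by more than 1.5 times in 6 genes.

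**Figure D2:**
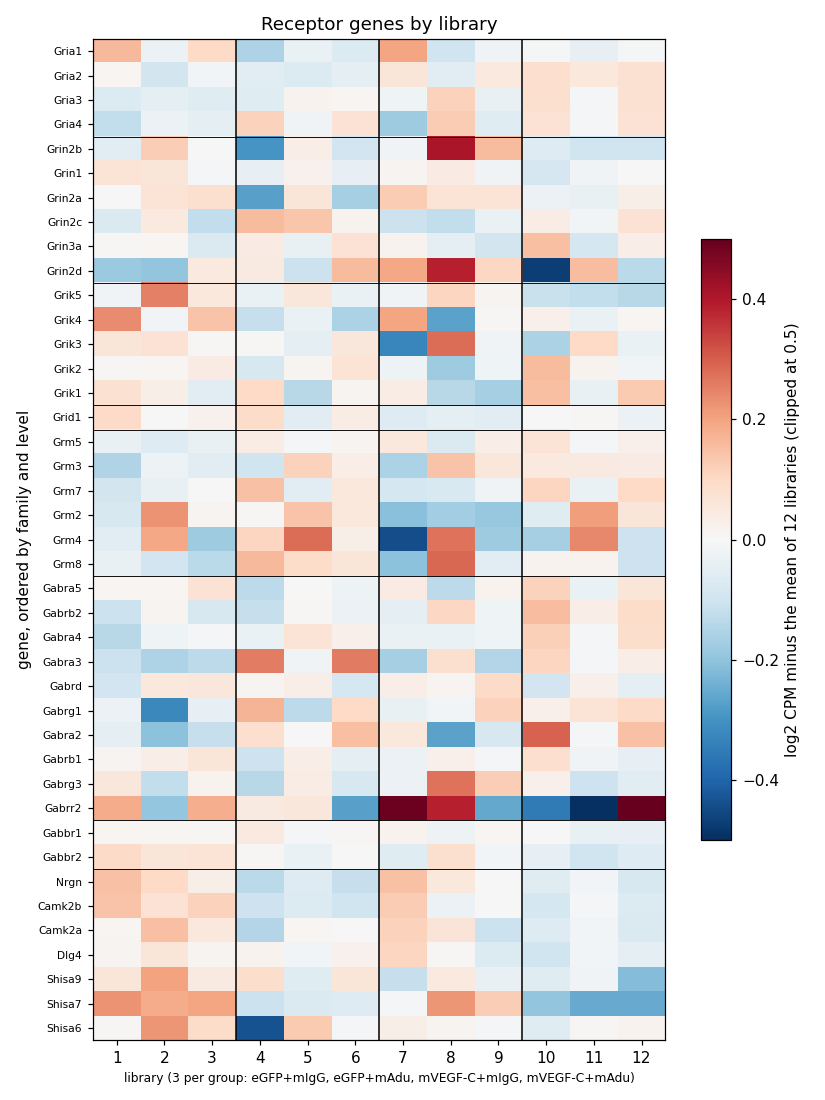
Log2 CPM of 41 of the genes in each of the 12 libraries, minus the gene's mean over the 12 libraries (colour, clipped at 0.5 either way), with libraries in columns by group. Shisa7 is below its mean in all 6 mAdu libraries, and the column of mouse 8 carries the highest Grin2b and Grik3 and the lowest Grik4.

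Averaged over both vectors, 3 of the 46 genes passed the test in mAdu against mIgG mice, and all 3 were lower: Shisa7, Nrgn and Camk2b. Over all 14881 genes, 0.571% passed. Here and below, adjusted p-values come from the quasi-likelihood test of edgeR fitted to all 12 libraries, with the Benjamini-Hochberg correction over the 14881 genes and a threshold of 0.05. All changes below are log2 differences from this fit with their standard errors (SE). The p-values take every library to be a separate mouse, and any sharing of RNA between libraries makes them too small.

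Shisa7 (ENSMUSG00000053550, chr7:4825552-4844696, minus strand, build mm10) was counted at 31.3, 30.5 and 30.7 CPM in the eGFP with mIgG mice and at 24.9, 25.5 and 25.6 CPM in the eGFP with mAdu mice. With mVEGF-C it was at 26.7, 31.2 and 29.2 CPM under mIgG and at 23.4, 22.5 and 22.5 CPM under mAdu. Every mAdu mouse was below every mIgG mouse, and mouse 7, with 26.7 CPM, was the mIgG mouse nearest to them. The average change was -0.32 (SE 0.040, edgeR adjusted p = 0.00257, n = 6 per antibody). These values rest on 556 to 892 reads per library.

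Nrgn (ENSMUSG00000053310, chr9:37544492-37552904, minus strand) was at 295, 286 and 272 CPM in eGFP with mIgG mice and at 243, 255 and 246 CPM in eGFP with mAdu mice. The mVEGF-C mice had 295, 277 and 266 CPM under mIgG and 256, 264 and 252 CPM under mAdu. No mAdu mouse reached the lowest mIgG mouse, although mice 9 and 11 were only 266 and 264 CPM. Nrgn fell by 0.16 on the log2 scale (SE 0.030, edgeR adjusted p = 0.0352).

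Camk2b (ENSMUSG00000057897, chr11:5969644-6066362, minus strand) was at 1031, 984 and 1014 CPM in eGFP with mIgG mice and at 870, 893 and 872 CPM in eGFP with mAdu mice. With mVEGF-C it was at 1022, 916 and 935 CPM under mIgG and at 881, 932 and 893 CPM under mAdu. The 3 eGFP with mAdu mice lay below all mIgG mice, while mouse 11 (932 CPM) was above mouse 8 (916 CPM). Its average change was -0.14 (SE 0.030, edgeR adjusted p = 0.0474).

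Without the 4 libraries of mice 3, 6, 9 and 12, the average changes were -0.31 for Shisa7, -0.18 for Nrgn and -0.14 for Camk2b, and none passed (edgeR adjusted p = 0.835 for each of the 3, n = 4 per antibody). Without mice 5 and 6, Shisa7 passed with -0.33 (edgeR adjusted p = 0.0228), Nrgn and Camk2b did not (edgeR adjusted p = 0.0887 and 0.133), and Grin2a passed with -0.21 (edgeR adjusted p = 0.0228). Leaving out 1 library at a time kept Shisa7 past the threshold in each of the 12 fits, whereas Nrgn lost it without mouse 1, 3, 4, 6, 10 or 12 and Camk2b also without mouse 9. Dentate granule cell markers moved with these genes: the 12 markers summed to 752 to 766 CPM in eGFP with mIgG mice, 660 to 698 in eGFP with mAdu, 662 to 795 in mVEGF-C with mIgG and 678 to 709 in mVEGF-C with mAdu. All 12 had a negative average change with mAdu, 2 of them passed the test, and none was at 0. All 10 oligodendrocyte markers were negative too, with a median of -0.15 and 1 passing as lower, as were 9 of 10 microglia markers, with a median of -0.09 and 1 passing as lower. The 7 choroid plexus markers were all negative, with a median of -0.23, and none passed. Among other neuronal lists, 8 of 10 CA3 markers (median -0.07) and 7 of 8 excitatory neuron markers (median -0.04) were negative. Of 7 CA1 markers 4 were positive and 3 negative, and 8 of 12 interneuron markers were positive (median 0.06). No marker of these neuronal lists passed. The part of these markers in the result was not tested.

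**Figure D3:**
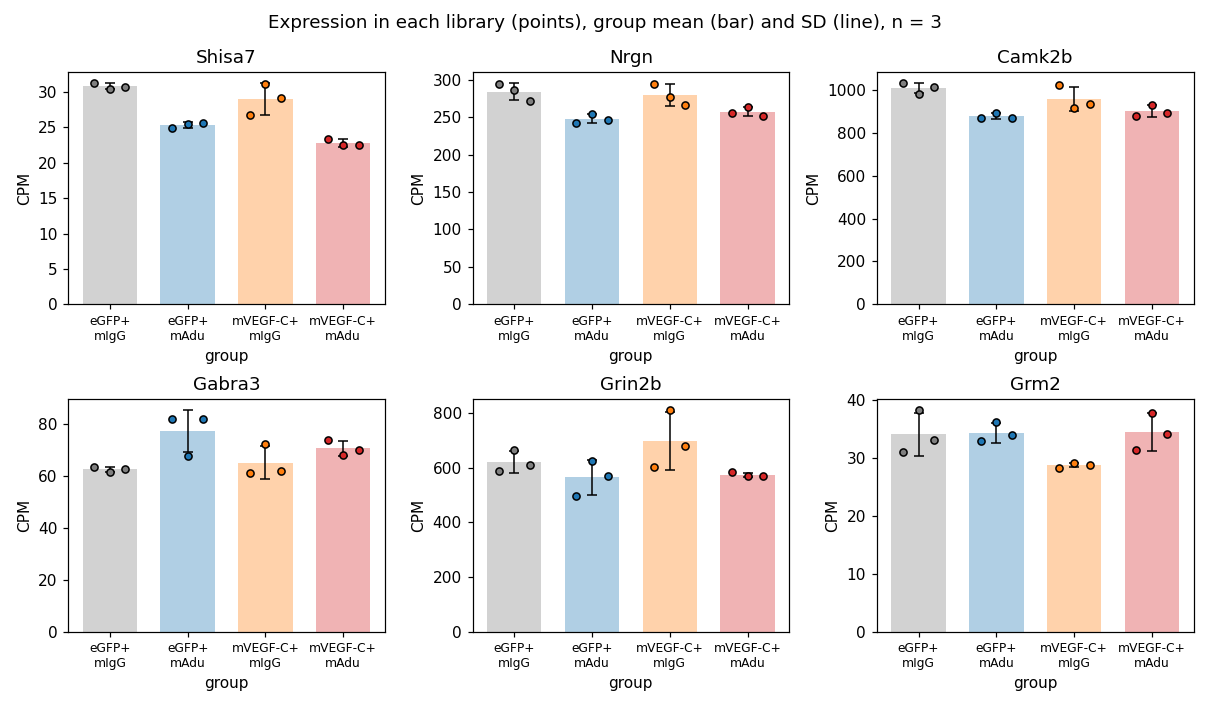
CPM of 6 genes in each of the 12 mice by group, with 1 point per mouse, bars for the group mean and lines for the SD. Shisa7 and Nrgn show every mAdu mouse below every mIgG mouse, and Grin2b shows mouse 8 at 812 CPM above all others.

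At an unadjusted p under 0.05, 18 of the 46 genes (39.1%) differed on average between antibodies, 9 higher and 9 lower, against 15.5% of all genes. Gabra3 and Gabra2, alpha subunits with regionally restricted use, had the next smallest p-values, with changes of 0.21 (SE 0.051, edgeR adjusted p = 0.0738) and 0.22 (SE 0.058, edgeR adjusted p = 0.0886). Groups of 6 that did not overlap were seen for Shisa7 and Nrgn alone, 4.35% of the 46 against 0.921% of all genes. All 7 partners had a negative average change, with a median of -0.11. The median of the 46 genes was -0.01 and that of all genes 0.00.

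Within eGFP mice, none of the 46 genes passed for mAdu against mIgG by edgeR's test, where 0.0336% of all genes did. At an unadjusted p under 0.05 there were 11 (23.9%, all genes 9.21%), and DESeq2 called 4 (8.70%, all genes 0.269%) and limma-voom with sample weights 8 (17.4%, all genes 3.41%). The 3 smallest edgeR p-values belonged to Shisa7, with a change of -0.28 (SE 0.056, edgeR adjusted p = 0.134), Camk2b with -0.20 (SE 0.043, edgeR adjusted p = 0.167) and Nrgn with -0.20 (SE 0.043, edgeR adjusted p = 0.193). For each of them the 2 groups did not overlap, as the values per mouse above show. Gabra3 read 63.5, 61.6 and 62.6 CPM under mIgG and 81.7, 67.7 and 81.9 CPM under mAdu, again without overlap, with a change of 0.30 (SE 0.072, edgeR adjusted p = 0.226). In all, 12 genes (26.1%) had groups that did not overlap, 5 higher and 7 lower, against 15.4% of all genes. All 12 dentate granule cell markers had negative changes (median -0.23), as did 9 of 10 oligodendrocyte markers (median -0.10). Positive changes were seen for 8 of 10 striatum markers (median 0.29) and 7 of 8 neocortex markers (median 0.11). Striatum sums were 163 to 165 CPM under mIgG and 183 to 192 CPM under mAdu. None of these markers passed, and their part was not tested.

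Within mVEGF-C mice, Shisa7 was the only one of the 46 genes to pass, and it fell from 29.0 ± 2.26 CPM under mIgG to 22.8 ± 0.534 CPM under mAdu (SD, n = 3 each). Of all genes, 0.208% passed. Its change was -0.35 (SE 0.058, edgeR adjusted p = 0.0228). The call was lost without mouse 6, 8, 9, 10, 11 or 12 and with only the 2 groups in the fit (edgeR adjusted p = 0.113), while the change stayed between -0.41 and -0.29 in all alternatives. Without the 4 libraries of mice 3, 6, 9 and 12, edgeR adjusted p was 0.997. Microglia markers were lower in the same mice: 10 of them summed to 590 to 641 CPM under mIgG and 518 to 523 CPM under mAdu, and 2 passed as lower. All 10 oligodendrocyte markers also had negative changes, with a median of -0.17 and 1 passing as lower, and so did all 7 choroid plexus markers, with a median of -0.60 and none passing. The part of these markers was not tested.

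Grm2 and Grin2b had the next smallest p-values in this contrast and did not pass. Grm2, which encodes a Gi-coupled presynaptic receptor, read 28.3, 29.0 and 28.7 CPM under mIgG and 31.3, 37.8 and 34.1 CPM under mAdu. The groups did not overlap, with a change of 0.26 (SE 0.078, edgeR adjusted p = 0.169). Grin2b, the NMDA subunit gene that is most used early in life, read 604, 812 and 682 CPM under mIgG and 584, 571 and 570 CPM under mAdu, with a change of -0.28 (SE 0.089, edgeR adjusted p = 0.193). Mouse 8 alone carried the value of 812 CPM, and it is the library with the highest neocortex and thalamus marker sums, whose part was not tested. An unadjusted p under 0.05 was reached by 15 of the 46 genes (32.6%, all genes 12.7%), and 12 (26.1%, all genes 16.5%) had groups without overlap.

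Under mIgG, none of the 46 passed for mVEGF-C against eGFP by edgeR's test, against 0.0403% of all genes. An unadjusted p under 0.05 was reached by 4 (8.70%), near the 7.91% of all genes, and DESeq2 called 0 (all genes 0.134%) and limma-voom 2 (4.35%, all genes 6.30%). Grm2 had the smallest p-value, at 30.9, 38.2 and 33.0 CPM with eGFP and 28.3, 29.0 and 28.7 CPM with mVEGF-C. It did not overlap between the groups, with a change of -0.24 (SE 0.078, edgeR adjusted p = 0.545). The mVEGF-C values are the same as those behind its change within mVEGF-C mice. Their mean was 28.7 CPM, against 34.0 CPM in eGFP with mIgG, 34.3 in eGFP with mAdu and 34.4 in mVEGF-C with mAdu. Grid1, whose product bridges synapses through cerebellins, read 89.9, 84.2 and 85.3 CPM against 80.3, 81.5 and 80.9 CPM, a change of -0.10 (SE 0.042, edgeR adjusted p = 0.618). Only 5 genes (10.9%, all genes 12.4%) had groups without overlap. All 10 oligodendrocyte markers had positive changes (median 0.12, 1 passing as higher), as did 9 of 10 microglia markers (median 0.09). Negative changes were seen for 11 of 12 dentate granule cell markers (median -0.12) and all 10 meningeal fibroblast markers (median -0.36). No microglia, dentate or fibroblast marker passed, and the part of all these markers was not tested.

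Under mAdu, again none of the 46 passed for the vector by edgeR's test, against 0.047% of all genes. Here 4 genes (8.70%) had an unadjusted p under 0.05, below the 14.3% of all genes, and DESeq2 called 0 (all genes 0.699%) and limma-voom 4 (8.70%, all genes 6.52%). Gria2 read 1258, 1246 and 1265 CPM with eGFP and 1386, 1356 and 1377 CPM with mVEGF-C, a change of 0.13 (SE 0.041, edgeR adjusted p = 0.173). Gabrb2, a GABA-A beta subunit gene, read 195, 212 and 207 CPM against 235, 216 and 225 CPM, a change of 0.14 (SE 0.049, edgeR adjusted p = 0.221). Gria2 and Gabrb2 did not overlap between the groups, as was true of 9 genes (19.6%, all genes 21.7%). Striatum markers summed to 183 to 192 CPM with eGFP and 152 to 170 CPM with mVEGF-C over 10 genes, none of which passed. Negative changes were also seen for 6 of 7 choroid plexus markers (median -0.64, 1 passing as lower), all 10 microglia markers (median -0.16) and all 10 meningeal fibroblast markers (median -0.44), and no microglia or fibroblast marker passed. The part of these markers was not tested.

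Averaged over antibodies, none of the 46 genes passed for the vector by edgeR's test, against 0.39% of all genes. There were 10 (21.7%, all genes 16.0%) at an unadjusted p under 0.05, 0 by DESeq2 (all genes 0.995%) and 6 by limma-voom (13.0%, all genes 12.0%). No gene of the 46 had groups of 6 without overlap, against 1.01% of all genes. Gria2 had a change of 0.09 (SE 0.029, edgeR adjusted p = 0.166) and Shisa7 of -0.12 (SE 0.040, edgeR adjusted p = 0.174). All 10 oligodendrocyte markers had positive changes (median 0.11, 1 passing as higher). All 10 meningeal fibroblast markers were negative (median -0.38, none passing), as were 5 of 7 choroid plexus markers (median -0.18, 1 passing as lower). What these markers contributed was not tested.

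**Figure D4:**
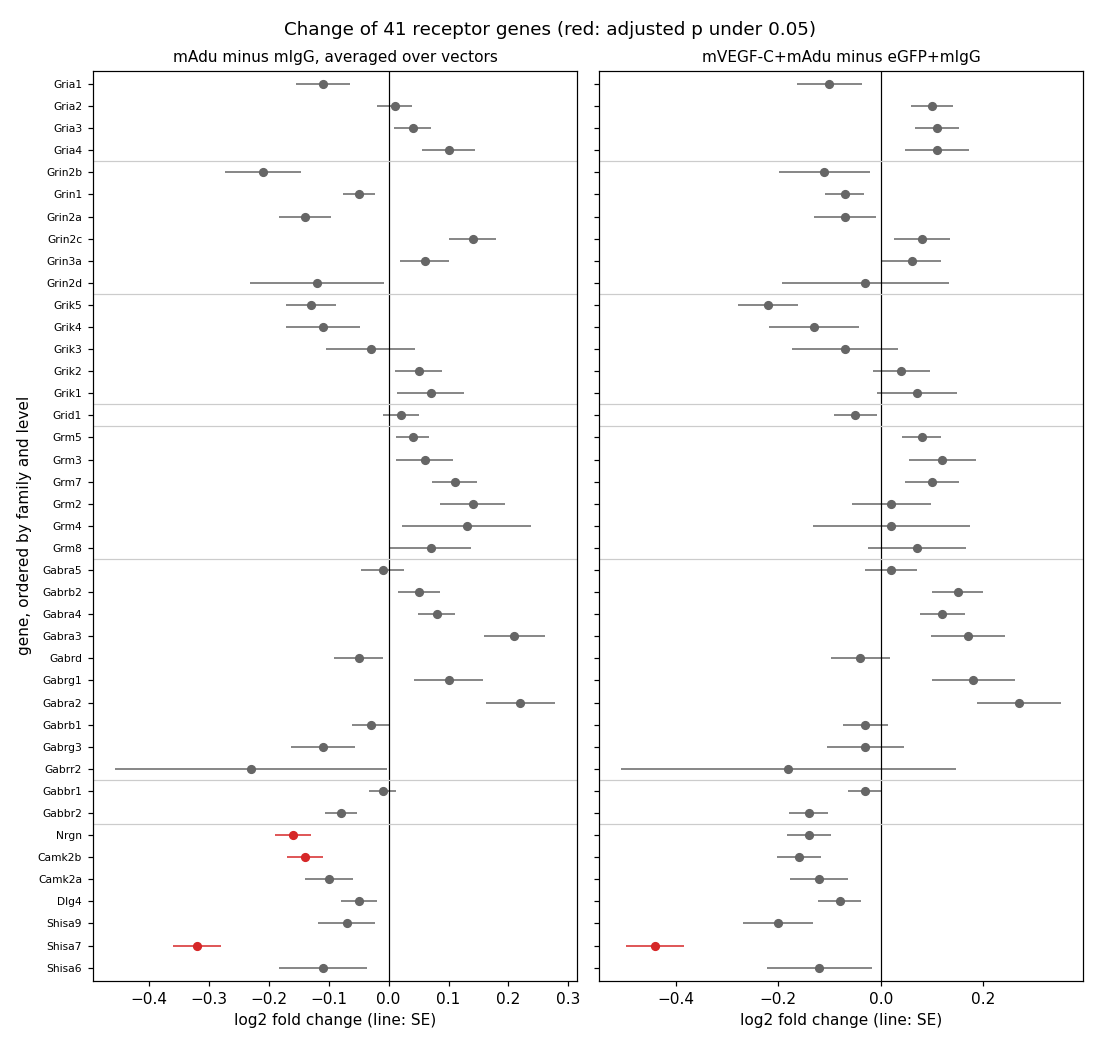
Log2 change of 41 of the genes with its SE, for mAdu against mIgG averaged over vectors (left) and for mice given both agents against neither (right), ordered by receptor class, in red where the edgeR adjusted p was under 0.05. Shisa7 lies farthest to the left in both panels, at -0.32 and -0.44, and all 7 partner genes sit to the left of 0 in both.

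Mice given both agents were then set against mice given neither. In mVEGF-C with mAdu mice, Shisa7 was lower than in eGFP with mIgG mice. It was among 2 of the 46 genes that passed, against 2.18% of all genes. Shisa7 went from 30.8 ± 0.439 to 22.8 ± 0.534 CPM (SD, n = 3 each), a change of -0.44 (SE 0.057, edgeR adjusted p = 0.0032). The call was kept in 19 of 20 alternatives, among them the fit without the filter, which repeats the main fit. It was lost without the libraries of mice 3, 6, 9 and 12, where the change was -0.43 (edgeR adjusted p = 0.56, n = 2 per group).

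Other genes stood near the threshold in this comparison. Camk2b had a change of -0.16 (SE 0.043, edgeR adjusted p = 0.0564). Grik5 read 62.7, 75.6 and 66.0 CPM in mice given neither and 58.8, 58.3 and 57.7 CPM in mice given both, a change of -0.22 (SE 0.059, edgeR adjusted p = 0.0582). Gabbr2, the GABA-B subunit that couples to G proteins, read 363, 354 and 356 CPM against 330, 317 and 325 CPM, a change of -0.14 (SE 0.038, edgeR adjusted p = 0.0596). None of the 3 overlapped between the groups, and none passed.

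By class, GABA-A genes had 8 positive and 5 negative changes with a median of 0.12, and 6 of the 13 were higher in every treated mouse than in any control, among them Gabra2, Gabra3, Gabrb2 and Gabrg1. Gabra2 read 39.0, 35 and 37.2 CPM in mice given neither agent and 49.5, 40.0 and 44.6 CPM in mice given both, a change of 0.27 (SE 0.082, edgeR adjusted p = 0.0861). AMPA receptor genes had 3 of 4 such members, Gria2, Gria3 and Gria4, and a median of 0.11. Metabotropic genes had 6 positive changes and 1 negative, with a median of 0.07. Both GABA-B genes were lower in every treated mouse than in any control, and so were 6 of the 7 partners, the exception being Shisa6. The median over the 7 partners was -0.14. Kainate genes had a median of -0.07 and NMDA genes of -0.05. Over all 46 genes, 21 (45.7%) had groups without overlap, 11 higher and 10 lower, against 27.2% of all genes, and 16 (34.8%, all genes 20.4%) had an unadjusted p under 0.05. The median change was -0.01 for the 46 genes and 0.00 for all genes. In the same comparison 9 of 10 microglia markers had negative changes (median -0.13, 3 passing as lower), as did all 7 choroid plexus markers (median -0.35, 1 passing as lower) and all 10 meningeal fibroblast markers (median -0.45, none passing). Among 10 astrocyte markers 6 were negative, and 1 passed as lower. Dentate granule cell markers were negative in 11 of 12 (median -0.14, none passing). Endothelium markers were positive in 8 of 10 (median 0.11, none passing). Of 10 CA3 markers 5 were positive and 1 passed as higher, and of 12 interneuron markers 8 were positive and 1 passed as higher. The part of these markers was not tested.

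Whether the antibody's effect differed between vectors was tested as an interaction. None of the 46 genes passed by edgeR's test, against 0.0134% of all genes. There were 3 (6.52%) at an unadjusted p under 0.05, against 6.82% of all genes, and DESeq2 and limma-voom each called 0 (all genes 0.0538% and 1.48%). The 3 smallest p-values belonged to Grm2, with a difference between the antibody's changes of 0.25 (SE 0.109), Grin2d with -0.50 (SE 0.224) and Gabra5 with 0.16 (SE 0.073), each at an edgeR adjusted p of 0.716. For Shisa7 that difference was -0.07 (SE 0.0806, edgeR adjusted p = 0.95). The Grm2 difference uses the same low mVEGF-C with mIgG values as its changes above, so these are not separate results.

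Base composition moved with the changes. Over the 46 genes, the change in mice given both agents had a Spearman rho of -0.62 with the G and C content of the longest transcript, and over 14791 genes with a value rho was -0.40. These are correlations across genes of the same libraries, and genes are not independent replicates. The lower genes Shisa7 (56.5%), Nrgn (58.6%), Camk2b (53.9%), Grik5 (61.7%) and Gabbr2 (56.0%) had more G and C than the median of 47.7% for the 46 genes. Gabra2 (38.4%) and Gria2 (36.8%) had less. With trends on G and C content and length removed, rho was -0.13 and 7 genes (15.2%) had an unadjusted p under 0.05, against 18.9% of all genes. The rho of that change with transcript length went from -0.13 to -0.33 over the 46 genes. For the antibody on average, rho with G and C content went only from -0.39 to -0.29, and with eGFP from -0.31 to -0.27.

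After that removal Shisa7 still passed, with a change of -0.35 in mice given both agents (edgeR adjusted p = 0.0145) and of -0.29 for the antibody on average (edgeR adjusted p = 0.00576). For the antibody on average, Nrgn and Camk2b each changed by -0.12 and did not pass (edgeR adjusted p = 0.0562 for both). Other genes passed there instead: Grin2b with a change of -0.16 (edgeR adjusted p = 0.0361), Grin2c with 0.17 (edgeR adjusted p = 0.042) and Gabra3 with 0.20 (edgeR adjusted p = 0.0448). Within mVEGF-C mice Grin2b passed beside Shisa7, with a change of -0.23 (edgeR adjusted p = 0.0485).

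**Figure D5:**
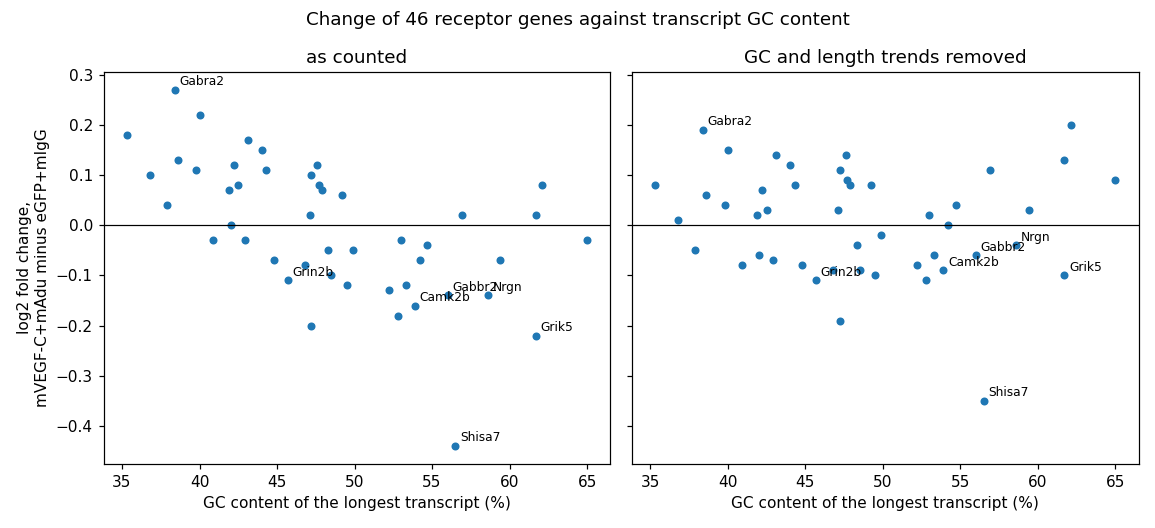
Log2 change in mice given both agents against mice given neither, plotted against the G and C content of the longest transcript in percent, with 1 point for each of the 46 genes, as counted (left) and with composition and length trends removed (right). On the left most genes of high G and C content lie below 0 and most of low content above it, with rho of -0.62, and on the right rho is -0.13.

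The neighbouring machinery was read from 7 lists outside the rule: AMPA and kainate auxiliary subunits, glutamate transport, postsynaptic scaffolds, calcium signalling, GABA synthesis and transport, GABA scaffolds, and other GABA-A or glycine receptor subunits. Of 101 listed genes 96 were measured. In mice given both agents 3 were higher and 1 lower than in mice given neither (4.17% of the 96, all genes 2.18%). Homer1, a scaffold that links metabotropic receptors to calcium stores, went from 175 ± 8.02 to 223 ± 19.2 CPM, a change of 0.35 (SE 0.058, edgeR adjusted p = 0.0101). Neto2, an auxiliary subunit of kainate receptors, changed by 0.23 (SE 0.049, edgeR adjusted p = 0.0298). Glrb, the glycine receptor beta subunit that anchors to gephyrin, changed by 0.18 (SE 0.040, edgeR adjusted p = 0.032).

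Averaged over antibodies, Homer1 was higher with mVEGF-C by 0.24 (SE 0.041, edgeR adjusted p = 0.0192) and Lhfpl4, which anchors synaptic GABA-A receptors, changed by -0.15 (SE 0.031, edgeR adjusted p = 0.0445). With the composition trends removed Homer1 kept its call in mice given both (edgeR adjusted p = 0.0365), and Neto2 and Glrb did not, nor did Homer1 and Lhfpl4 in the vector average. Without the libraries of mice 3, 6, 9 and 12 none of these calls was kept.

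In the other 6 contrasts none of the 96 passed by edgeR's test. For the antibody with eGFP, 14 of them (14.6%, all genes 9.21%) had an unadjusted p under 0.05, and DESeq2 called 2 (2.08%, all genes 0.269%) and limma-voom 5 (5.21%, all genes 3.41%). With mVEGF-C there were 15 (15.6%, all genes 12.7%), and DESeq2 called 1 (1.04%, all genes 0.847%) and limma-voom 11 (11.5%, all genes 8.29%). The antibody average gave 24 (25.0%, all genes 15.5%), with 4 by DESeq2 (4.17%, all genes 1.46%) and 18 by limma-voom (18.8%, all genes 11.3%). The vector gave 12 under mIgG (12.5%, all genes 7.91%), with 0 by DESeq2 (all genes 0.134%) and 15 by limma-voom (15.6%, all genes 6.30%). Under mAdu it gave 21 (21.9%, all genes 14.3%), with 3 by DESeq2 (3.12%, all genes 0.699%) and 15 by limma-voom (15.6%, all genes 6.52%). The interaction gave 12 (12.5%, all genes 6.82%), with 0 by DESeq2 (all genes 0.0538%) and 4 by limma-voom (4.17%, all genes 1.48%).

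Genes with the most similar profile over the 12 libraries were found by Pearson's r of log2 CPM, as a description of libraries that share groups and depth. Shisa7 was most like Cacna1b (r = 0.935), C3 (0.918) and AC149090.1 (0.917). Nrgn was most like Mdga1 (0.936), Camk2b (0.909) and Snora23 (0.908). Closest to Camk2b were Dsp (0.962), Homer3 (0.930) and Arhgef25 (0.928), and Dsp is one of the dentate granule cell markers that passed as lower with mAdu.

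For mVEGF-C against eGFP, Grin2b changed by 0.17 under mIgG, the highest of 17 main subunits and partners followed in every contrast, and Shisa9 by -0.13, the lowest. Neither passed by edgeR's test. Under mIgG, Grin2b read 604, 812 and 682 CPM with mVEGF-C, the highest in mouse 8, and 589, 666 and 612 CPM with eGFP. Other followed genes are given by their levels in CPM over the 12 mice. Gria1 lay between 866 and 1104, Camk2a between 688 and 845 and Dlg4 between 315 and 363. The lowest Gria1 and Camk2a values were both in mouse 4. Grin1 lay between 200 and 222, Grin2a between 120 and 158, and Grik4 between 38.0 and 53.9. Gabra5 lay between 182 and 216 and Gabrd between 26.8 and 30.6. Shisa6 lay between 17.8 and 28.1, and its lowest value was also in mouse 4, while Shisa9 lay between 23.8 and 31.8.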

How the data were processed

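Hippocampal RNA was sequenced in 12 libraries, and the authors deposited whole-number read counts per gene for every library in a single table. Build mm10 and the tools STAR, Trim Galore, FastQC, featureCounts from Subread, and edgeR stand without roles or order, per the submitters' processing notes. Tool versions, annotation, strand setting and handling of multiply mapped reads: not given in the sources used here. Groups came from the sample titles. Symbols, coordinates and exon lengths were taken from GENCODE M21, which named 14797 of 14881 rows.

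The test was run in edgeR 4.0.16 under R 4.3.3 (TMM scaling, filterByExpr, 1 mean per group, quasi-likelihood test, Benjamini-Hochberg adjustment over 14881 genes). The script was tested on simulated data. CPM used TMM-scaled library sizes. Alternatives were DESeq2 1.42.0, limma 3.58.1 voom with sample weights, DESeq2 size factors, no filter, the compared groups alone, libraries left out, and removal of G and C content and length trends.

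The genes, lists and tests were chosen with earlier results of these data known. Genes named were the 3 with the smallest p in each contrast, those that passed, 17 followed genes, and passing genes of the lists. Results for some of these genes are not reported here.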

Additional observations from a re-analysis of the deposited data

How the results depend on the processing

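No receptor gene that passed changed direction in any alternative, and DESeq2 size factors left each count within 1.5 times. The fit without the filter repeats the main fit, because the filter removed no gene, so it tests nothing. No paired analysis was possible because the library numbers run from 1 to 12 over the groups and no number is shared. "Only the groups compared" was not run for the interaction or the averages. For the 46 genes, limma-voom called 8, 7, 2 and 4 for the antibody with eGFP, the antibody with mVEGF-C, the vector with mIgG and the vector with mAdu. It called 15 for both agents, 18 for the antibody on average and 6 for the vector on average. In that order these were 17.4%, 15.2%, 4.35%, 8.70%, 32.6%, 39.1% and 13.0% of the 46. Over all genes the shares were 3.41%, 8.29%, 6.30%, 6.52%, 17.9%, 11.3% and 12.0%. DESeq2 called 4 for the antibody with eGFP (8.70%, all genes 0.269%), 5 for both agents (10.9%, all genes 2.93%) and 5 for the antibody on average (10.9%, all genes 1.46%). With only the groups compared, the antibody with mVEGF-C gave 0 and both agents 6. Without mice 3, 6, 9 and 12 the counts for the antibody with mVEGF-C, both agents and the antibody on average were 0. With the composition trends removed they were 2 and 1 for the antibody with mVEGF-C and both agents. Leaving out 1 library gave 0 to 3, 0 to 2, 0 to 0, 0 to 0, 1 to 7, 0 to 0, 1 to 5 and 0 to 0, in the order antibody with eGFP, antibody with mVEGF-C, vector with mIgG, vector with mAdu, both agents, interaction, antibody average and vector average.

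For all genes, in that same order, the counts were 5, 31, 6, 7, 324, 2, 85 and 58. Leaving out 1 library gave 4 to 35, 2 to 138, 1 to 52, 0 to 110, 12 to 594, 0 to 36, 9 to 172 and 4 to 253. DESeq2 gave 40, 126, 20, 104, 436, 8, 217 and 148. Limma-voom gave 507, 1234, 937, 970, 2660, 220, 1681 and 1789. Without mice 3, 6, 9 and 12 the counts were 2, 0, 2, 0, 2, 0, 1 and 0. With only the groups compared they were 6, 2, 62 and 610 for the second to the fifth. Without mice 5 and 6 they were 49 for the vector with mAdu, 192 for both agents, 0 for the interaction, 43 for the antibody average and 122 for the vector average. With composition trends removed they were 48 for the antibody with mVEGF-C, 3 for the vector with mAdu, 205 for both agents, 177 for the antibody average and 36 for the vector average. The causes were not tested. Depth limits Gabrr2 and Grin2d most.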
